A study of Caenorhabditis elegans with 6 samples.

Results

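The features described here are the annotated piRNA loci of Caenorhabditis elegans, listed under names that begin with 21ur-, that had at least 1 read in the 21U size class of a small RNA sequencing experiment. They were chosen from that class by the presence of a read in any of the 6 libraries, and 275 of the 15365 21ur rows met this condition (1.79%). At the edge of the rule, 92 of the chosen loci had a single read over the 6 libraries, and the 15090 rows outside it had 0. The libraries came from whole gravid F2 adults of strain BCN1050 (N2 background), in which the unc-119(ed3) mutation is complemented by unc-119(+) within the insertion crgIs1002, beside mCherry under the daf-21 promoter with the unc-54 3′ UTR. Every culture of both groups had this genotype. In the 3 High cultures the P0 grandparents had lived at 25 °C, and in the 3 Low cultures at 16 °C. All were moved to 20 °C as L4 larvae, so the F1 and the sequenced F2 worms themselves had grown at 20 °C, the F2 for 72 hours from the L1 stage.

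piRNAs of the worm, called 21U RNAs, are short RNAs that begin with a uridine and are bound by the Argonaute PRG-1 in the germline. Each annotated locus is its own small transcription unit, and most lie in large clusters on chromosome IV. PRG-1 with its piRNA can recruit RNA-dependent RNA polymerases to a target transcript, where secondary 22G RNAs are made. The 26G RNAs are a separate primary class bound by other Argonautes. The comparison of High with Low asks whether the grandparents' temperature left a difference in these RNAs.

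Values are normalized counts, which are reads divided by a size factor of the library, and 1 read was worth between 0.764 and 1.52 normalized counts. Summed over rows, the 21U class held 37630 to 59648 reads per library, and the 21ur loci held 2568 to 6018 of these. Overlapping rows can list the same read, and with identical rows counted once the 21ur sum was 1842 to 4220. The Low replicate 1 library stood apart in this class, with a normalized total of 59360 against 41430 to 45567 in the other 5 libraries. In that library 79.1% of the class lay on features annotated as ncRNA or rRNA, against 69.2% to 70.8% in the others. It also stood apart in the 26G class, with a normalized total of 57142 against 17491 to 25760. Its deposited name carries a number out of series with those of the other 5 libraries, and the meaning of that number was not given. The median log2 difference, High minus Low, was -0.38 over the 592 tested features of the 21U class. With TMM scaling that median was -0.06.

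On which strand reads were counted was not given in the sources used here. Overlapping 21ur rows of opposite strands listed unequal counts, such as 5159 reads at 21ur-12805 and 5 at 21ur-5787, so a read was listed at one of them. Whether a row lists reads of its own strand or of the opposite strand was not tested. If it lists the opposite strand, the signal of a row belongs to its neighbour on that strand, and all values are therefore described by the row that lists them. Of the 15351 21ur rows that matched an annotated piRNA gene by name, 563 overlap a 21ur locus of the opposite strand, and 204 of these (36.2%) had a 21U read. Of the 14788 that overlap none, 65 (0.44%) had one. An overlapping locus of the opposite strand is called an opposite-strand neighbour here. The loci with an opposite-strand neighbour held 97.6% of the 21ur signal of the class, and all of the 12 highest loci were among them. Rows named after microRNAs were also nearly empty in the 21U class. Only 12 of 256 such rows had a 21U read, while 42 had a 22G read, with a highest 22G mean of 161 normalized counts at mir-8196.1. The rows mir-1, let-7 and lin-4, which are known as well-expressed microRNAs, had 0 reads in the 21U, 22G and 26G classes. The class definitions were not given, so whether these microRNAs could enter each class is not known.

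**Figure D1:**
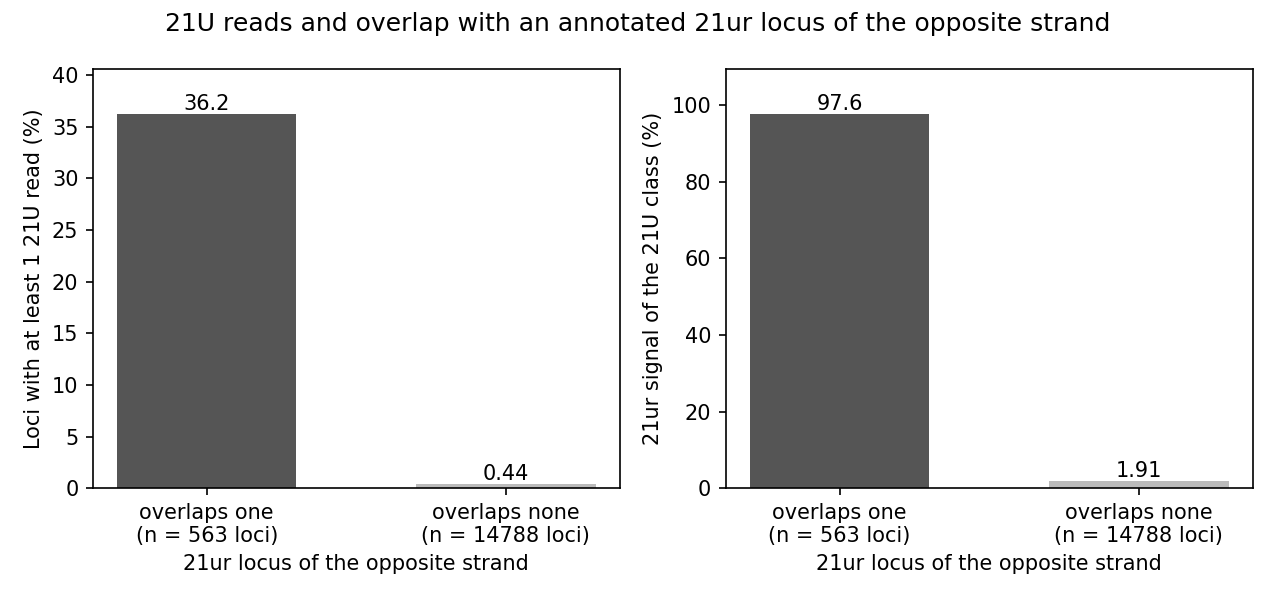
Share of annotated 21ur loci with at least 1 21U read (left, percent of loci) and share of the 21ur signal of the 21U class (right, percent of the mean normalized count), for loci that overlap an annotated 21ur locus of the opposite strand and loci that overlap none. The first kind had reads at 36.2% of loci and held 97.6% of the signal, and the second at 0.44% of loci with 1.91% of the signal.

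The same counts can also be read from the side of the chosen loci, which is not a second observation. An opposite-strand 21ur neighbour was annotated for 204 of the 269 that matched by name (75.8%) and for 359 of the other 15082 matched rows (2.38%). A same-strand overlap was annotated for 105 of the 269 (39%) and for 6113 of the other matched rows (40.5%). A position inside a protein-coding gene was annotated for 77 of 269 chosen loci (28.6%) and for 5864 of the other rows (38.9%), and those 77 loci held 2.31% of the 21ur signal. All but 1 of the 269 lie on chromosome IV, where 14702 of the 15351 matched rows are. The exception, 21ur-14704 on chromosome II, had 1 read. The 98 matched rows of chromosome I, 78 of III, 202 of V and 162 of X had no 21U read, and none of the rows outside chromosome IV overlaps a 21ur locus of the opposite strand.

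The most abundant signal lay on the overlapping rows 21ur-12805 and 21ur-11046, which listed the same values in every library, so that the 2 rows cannot be separated. They had 674, 775 and 820 normalized counts in High and 727, 932 and 1029 in Low. The groups overlapped, with Low replicate 1 between the High libraries. In RNA of whole worms, a difference in the number of germline cells and one in RNA per cell could not be told apart. Their opposite-strand neighbour 21ur-5787 had 5 reads over the 6 libraries. 21ur-11621 had 710, 678 and 760 normalized counts in High and 774, 863 and 875 in Low, and here every High library lay below every Low library. Both of its opposite-strand neighbours, 21ur-5329 and 21ur-15459, had 1 read. 21ur-13144 had 324, 310 and 297 normalized counts in High and 294, 280 and 313 in Low, so that the groups overlapped, and its neighbour 21ur-7225 had no read.

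Below these 4 rows the level dropped. The rows 21ur-8610 and 21ur-4360, again with the same values, had 154, 158 and 199 normalized counts in High and 171, 257 and 189 in Low. Only Low replicate 2 was above the highest High library. 21ur-6904 had 121, 139 and 116 in High and 115, 155 and 123 in Low. The pair 21ur-13259 and 21ur-12899 had 115, 105 and 107 in High and 120, 107 and 104 in Low. In both cases the groups overlapped. On the strand opposite to 21ur-6904 the rows 21ur-1658, 21ur-4974 and 21ur-9577 shared 58 reads, the highest number on the other side of any of the 12 highest loci. 21ur-8148 ranged from 68.4 to 92.5 in High and from 75.8 to 99.5 in Low. 21ur-13879 ranged from 59.5 to 85.3 in High and from 59.1 to 69.9 in Low, and 21ur-10499 from 31.9 to 43.4 in High and from 16.7 to 43.4 in Low, so that all of these overlapped. The coefficient of variation over the 6 libraries was between 5.14% and 32.1% for the 12 highest rows.

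**Figure D2:**
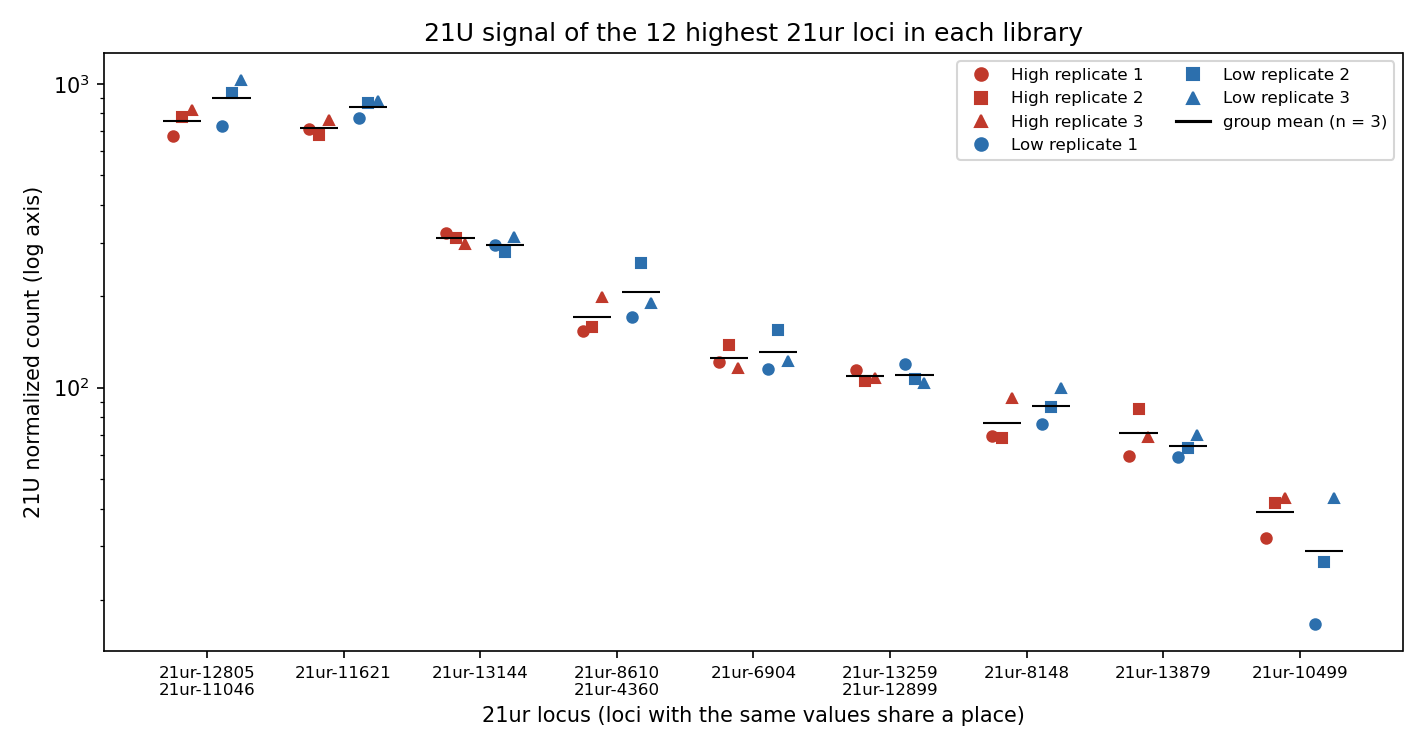
21U normalized count (log axis) of the 12 highest 21ur loci, which give 9 distinct sets of values, with 1 point per library, High in red to the left of Low in blue, and the group mean as a bar (n = 3). The High and Low libraries overlap at 8 of the 9 places, and at 21ur-11621 the High values (678 to 760) lie below the Low values (774 to 875).

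Neighbours in this order were not all separated by their spread. 21ur-12805 and 21ur-11621 differed in mean (826 and 777 normalized counts over the 6 libraries) by less than the range of either. 21ur-13144 (303) lay below all values of 21ur-11621 and above all values of 21ur-8610 (188), whereas 21ur-8610 and 21ur-6904 (128) overlapped, as did 21ur-6904 and 21ur-13259 (109), and 21ur-8148 (82) and 21ur-13879 (67.6).

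The 65 loci with reads and no opposite-strand neighbour were low. Their summed signal was 66.1, 92.4 and 65.5 normalized counts in High and 81.8, 86.3 and 83.6 in Low, with overlapping groups. The highest, chosen here for their rank, were 21ur-4472, 21ur-2362 and 21ur-3793, with means of 30.7, 15.4 and 11.5 normalized counts over the 6 libraries, and the next, 21ur-1372, averaged 3.16. Of the 204 loci with a neighbour, 122 had no read on any locus of the opposite strand, and for 82 a neighbour had a read as well. Among the 82 are 4 loci annotated at 2 overlapping places of opposite strands, which count as their own neighbour.

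As the rows list it, the signal was concentrated on few loci. Of it, 97.6% lay on loci with an opposite-strand neighbour, and whether the strand counted set this concentration was not tested. In each of the 6 libraries 3 rows held at least 50% of the 21ur signal, or 2 when rows with identical values were counted once. The 10 highest rows held 84.9% ± 0.443 of this signal in High libraries and 85.5% ± 0.906 in Low libraries (SD, n = 3 each). The difference between groups was within the spread of the libraries, and it turned to 0.83 percentage points higher in High when identical rows were counted once (86.8% ± 0.0774 in High, 85.9% ± 0.821 in Low). The Gini index of the signal over the 275 loci, which is 0 for equal levels and 1 for a single locus, was 0.948 ± 0.000973 in High and 0.946 ± 0.000752 in Low, and the groups overlapped.

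Most of the 275 loci were seen rarely, again as the rows list them. A read was present in only 1 library for 100 of the 275 loci and in all 6 for 49, and those 49 held 96.5% of the signal. The median locus had 3 reads over the 6 libraries, 154 loci had at most 3, and 17 had at least 100. Of the 275, which form 139 distinct sets of values, 149 had reads in both groups. The others met the rule only through the group where they had reads, so their numbers are not a comparison of the groups. The highest total was 6 reads among loci seen only in High (21ur-3984, with 2, 3 and 1 in the High libraries). It was 8 among loci seen only in Low (21ur-1086), so loci seen in 1 group had few reads. 21ur-3984 was the only locus with a read in every High library and none in Low, and 21ur-15599, 21ur-3414 and 21ur-15265 had a read in every Low library and none in High, with 4, 3 and 3 reads. These loci are named for their counts, which were known when they were picked.

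The number of loci with a read was 121, 130 and 136 in the High libraries and 111, 160 and 142 in the Low libraries. Summed over rows, Low replicate 1 had the fewest 21ur reads (2568) and loci, and Low replicate 2 the most (6018 reads). At a common depth of 2568 reads summed in this way, the expected number was 108, 103 and 103 in High and 111, 111 and 112 in Low. The groups then no longer overlapped. With rows of identical values counted once, at a common depth of 1842 reads, the groups overlapped, at 76.9, 78.9 and 77.6 in High and 78, 79.7 and 83.8 in Low.

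**Figure D3:**
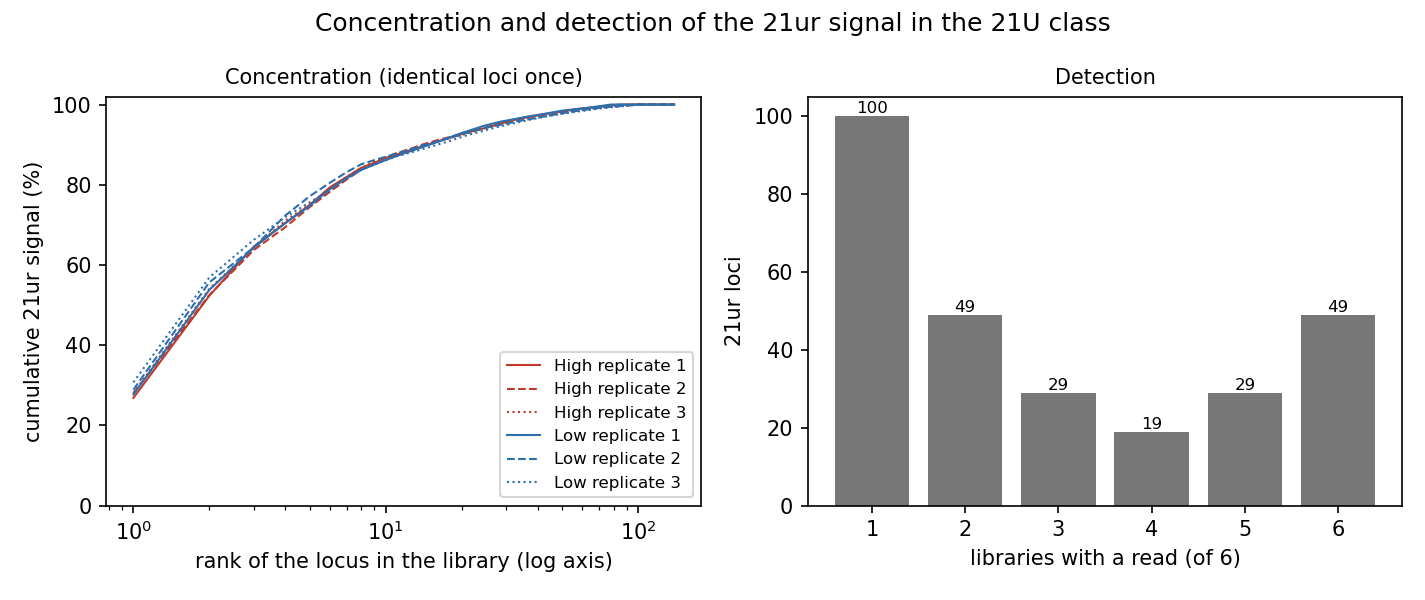
Left, cumulative share of the 21ur signal (percent) against the rank of the locus in each library (log axis), rows with identical values counted once, High in red and Low in blue. The 6 curves lie close together, and 2 sets of rows hold over 50% in each. Right, number of the 275 loci with a read in 1 to 6 libraries, from 100 loci in 1 library to 49 in all 6.

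The summed 21ur signal of the 21U class was 3667, 3867 and 4118 normalized counts in High and 3892, 4597 and 4749 in Low, with overlapping groups. The means were 3884 ± 226 in High and 4413 ± 458 in Low (SD, n = 3 libraries a group). Their log2 difference was -0.18, and -0.20 with the 22G class total as the scale. It was 0.10 with TMM scaling and 0.031 with equal class totals, so its direction depended on the scaling. The 21ur loci took 8.85%, 8.93% and 9.9% of the class in High and 6.56%, 10.1% and 10.4% in Low. The lowest value was that of Low replicate 1, and without it the High minus Low difference of the shares was -1.04 percentage points instead of 0.196. A single other feature, ZK930.13, took 34.3%, 37.7% and 33.7% of the class in High and 22.5%, 31.9% and 27.7% in Low, without overlap. It is part of the class total by which the 21ur share is divided. Summed rows count a read more than once where rows overlap. Counted once per set of identical values, the sums were 2643, 2767 and 2922 in High and 2791, 3224 and 3346 in Low.

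No tested 21ur locus differed between High and Low past the threshold. Tests were run on the 38 of 275 loci that averaged 5 or more normalized counts over the 6 libraries, which form 31 distinct sets of values. limma called 0 of the 38 at an adjusted p under 0.05, against 0.169% of all 592 tested features, and 1 had an unadjusted p under 0.05, against 20.9% of all features. edgeR and DESeq2 on the recovered reads also called 0, each against 0.169% of all features. Each had 1 locus at an unadjusted p under 0.05, against 25.2% of all features by edgeR and 17.9% by DESeq2. High and Low libraries did not overlap for 8 of the 38 (21.1%), against 31.1% of all tested features. In 4 of these High was above Low, against 4.22% of all tested features, and in 4 it was below, against 26.9%. The first 4 were 21ur-4472 and the rows 21ur-1658, 21ur-4974 and 21ur-9577, which share 1 set of values. The others were 21ur-11621, 21ur-2362, 21ur-380 and 21ur-10514.

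The widest difference was at 21ur-2362, which has no opposite-strand 21ur neighbour, as holds for 3 of the 37 tested loci that matched by name. It had 7.71, 9.77 and 10.6 normalized counts in High and 27.3, 21.4 and 15.9 in Low, so that every High library lay below every Low library. The log2 difference was -1.1 ± 0.32 (SE, n = 3 each, limma adjusted p = 0.111), with a 95% interval from -1.80 to -0.39. It had an adjusted p under 0.05 in 1 of 16 alternative fits, the one without Low replicate 3 (0.0467), and up to 0.67 in the others. Without Low replicate 3, limma called 8.95% of all 592 tested features, 53 in number.

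The next 3 loci by p also had negative differences that did not pass. 21ur-380 had 17.6, 7.11 and 13.9 normalized counts in High and 22.7, 19.9 and 21.2 in Low. It differed by -0.76 ± 0.36 on the log2 scale (limma adjusted p = 0.228). 21ur-13875 differed by -0.68 ± 0.33 (limma adjusted p = 0.251) and 21ur-10514 by -0.59 ± 0.30 (limma adjusted p = 0.281). For 21ur-380 and 21ur-10514 the groups did not overlap, and for 21ur-13875 they did. The fifth was the set 21ur-1658, 21ur-4974 and 21ur-9577, which differed by 0.48 ± 0.31, with 12.1, 9.77 and 11.5 normalized counts in High and 7.58, 6.11 and 9.53 in Low (limma adjusted p = 0.373).

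For the most abundant loci the intervals bound the difference. 21ur-12805 and 21ur-11046 differed by -0.23 ± 0.21 on the log2 scale, with a 95% interval from -0.70 to 0.23. 21ur-11621 differed by -0.23 ± 0.19 (-0.64 to 0.19) and 21ur-13144 by 0.07 ± 0.22 (-0.42 to 0.56). Over the 12 highest loci the interval bounds ran from -0.86 to 1.34, the upper one at 21ur-10499. The interval of 19 of the 38 tested loci lay within 1 log2 unit of 0.

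Of the 38 loci, 17 had a positive and 21 a negative log2 difference, with a median of -0.04, beside a median of -0.38 over all tested features. With TMM scaling 30 were positive and 8 negative (median 0.28, all features -0.06), and with equal class totals 27 were positive and 11 negative (median 0.20, all features -0.12). The sign of a small difference at these loci therefore rests on the scaling.

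**Figure D4:**
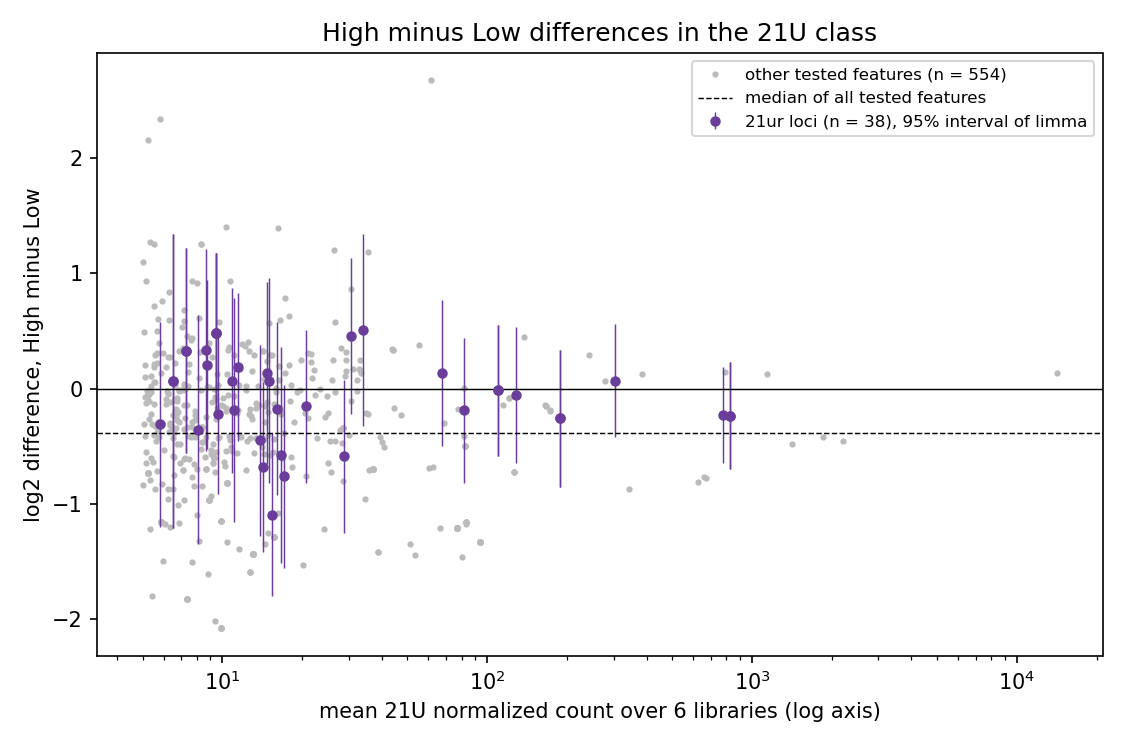
log2 difference High minus Low against the mean 21U normalized count over the 6 libraries (log axis) for the 38 tested 21ur loci, with the 95% interval of limma, and for the other tested features in grey. The dashed line is the median of all tested features (-0.38), and among the 21ur loci only the interval of 21ur-2362 lies away from 0.

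The same rows were then examined in the 22G class, whose values the choice of loci did not use. Of the 275 loci 52 (18.9%) had a 22G read, against 619 of the other 15090 21ur rows (4.1%). By position, 65 of the 563 loci with an opposite-strand 21ur neighbour had one (11.5%), against 602 of the 14788 without (4.07%). Together the 275 had 219, 191 and 241 normalized 22G counts in High and 168, 208 and 196 in Low, which was 0.00804% to 0.0117% of the 22G class. Without 21ur-13670, the highest of them, the sums were 91.4, 82.6 and 77.7 in High and 71.2, 72.6 and 60.3 in Low, with no overlap, a comparison made after the values were known. Only 9 of the loci had a 22G read in every library, and 15 had a single read.

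The loci with most 21U signal and those with most 22G signal were largely different. The 12 highest in the 21U class had between 0 and 5 22G reads over the 6 libraries. Of the 38 loci with a 21U mean of at least 5, 11 had a 22G read and 1 had a 22G mean of at least 5. A 22G mean of at least 5 was reached by 4 loci, and 3 of these had at most 3 21U reads.

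21ur-13670 carried most of the 22G signal of the set. It had 128, 108 and 163 normalized 22G counts in High and 97, 135 and 135 in Low, with overlapping groups, and 2 21U reads in all. 21ur-1702 had 23.1, 16.9 and 15.5 in High and 21.2, 13.8 and 10.6 in Low, and also 2 21U reads. 21ur-14704, which lies in an exon of the protein-coding gene C15F1.5 on the same strand, had 8.81, 14.2 and 14.7 in High and 12.1, 9.93 and 7.41 in Low, and 1 21U read.

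21ur-4472 was the only locus with a mean of at least 5 in both classes. In the 21U class it had 33, 41.7 and 31.9 normalized counts in High and 21.2, 24.4 and 31.8 in Low. High replicate 3 and Low replicate 3 nearly met, and the log2 difference of 0.46 ± 0.31 did not pass (limma adjusted p = 0.388). In the 22G class it had 9.91, 13.3 and 14.7 in High and 1.52, 11.5 and 10.6 in Low, where Low replicate 1 was the only library under 9. No 21ur locus of the opposite strand overlaps it.

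21ur-5873 and 21ur-9242 followed, with the same values in both classes, and 22G means of 3.99 ± 1.18 in High libraries and 4.71 ± 0.575 in Low libraries (SD, n = 3 each) that were too low for a test. limma called 0 of the 4 tested loci in the 22G class, against 8.3% of the 9402 tested features, and 0 had an unadjusted p under 0.05, against 17.6%. edgeR also called 0, against 8.21% of all features, and DESeq2 0, against 7.48%. Both gave 0 of the 4 an unadjusted p under 0.05, against 17.9% of all features by edgeR and 12.1% by DESeq2. High and Low libraries overlapped at each of the 4, while 22.7% of all tested features did not overlap. The smallest p was that of 21ur-4472, with a log2 difference of 0.92 ± 0.57 (limma adjusted p = 0.486), while 21ur-1702 differed by 0.30 ± 0.31 (limma adjusted p = 0.719), 21ur-14704 by 0.32 ± 0.34 (0.733) and 21ur-13670 by 0.11 ± 0.17 (0.83).

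**Figure D5:**
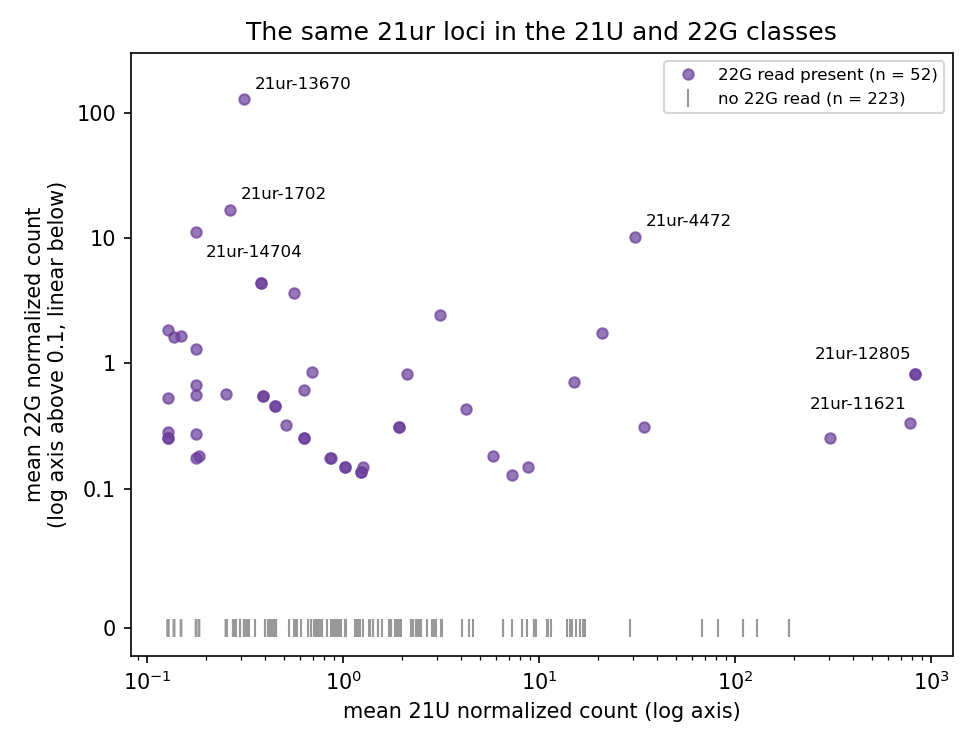
Mean 22G normalized count (log axis above 0.1, linear below) against mean 21U normalized count (log axis) for the 275 loci, with the 223 loci without a 22G read as ticks at 0. 21ur-13670 is highest in the 22G class at a 21U mean of 0.311, and 21ur-12805 is highest in the 21U class at a 22G mean of 0.829.

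In the 26G class 4 of the 275 loci had a read, and each of them had 1 in all. They were 21ur-13144, 21ur-558, 21ur-13875 and 21ur-2368, and the reads fell in 2 High and 2 Low libraries. No locus reached the minimum for a test, so none could be called, beside 0% of the 272 tested features of that class.

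Genes of the piRNA pathway and of related small RNA pathways were read from the 22G class as targets of small RNAs. That is not a measure of their expression. This reading takes the counted reads to lie on the strand opposite to the gene, which was not tested. Of 40 listed genes for piRNA transcription, processing and binding and for other small RNA steps, among them csr-1 and ekl-1, 39 were tested. By limma 1 of these was higher in High, against 5.64% of all tested features, and 0 were lower, against 2.66%. The one was prde-1, a gene for piRNA precursor transcription, with 134, 145 and 119 normalized 22G counts in High and 81.8, 80.2 and 85.7 in Low (log2 difference 0.67 ± 0.12, limma adjusted p = 0.00302). prg-1, which encodes the piRNA-binding Argonaute, had 1127, 1143 and 1125 in High and 1161, 1157 and 1044 in Low (0.02 ± 0.06, limma adjusted p = 0.94). The median log2 difference was 0.05 over the listed genes and 0.01 over all tested features.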

How the data were processed

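The authors treated 1 µg of total RNA with phosphatase and kinase and sequenced inserts of 18 to 36 bp as single reads of 50 nt, per the labels' protocols. Per the submitters' processing notes, DESeq2 1.8.1, featureCounts 1.4.6, Bowtie 1.1.1 and cutadapt 1.7.1 were used. Their settings, the strand, build, multi-mapping and class definitions were not given in the sources used here.

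Each deposited table holds a signal, the read count divided by a size factor, for 46761 features in 3 classes. All nonzero values were whole multiples of 1 step per library (100% within 0.01 reads), so whole reads were recovered. Features with a mean of at least 5 were compared by limma-trend (limma 3.58.1 in R 4.3.3) on log2(value + 1), High minus Low, two-sided, adjusted by Benjamini-Hochberg over all features of a class, threshold 0.05. Fold changes are on that scale, which understates low loci. edgeR 4.0.16 and DESeq2 1.42.0 ran on recovered reads. Sums over the loci got no test.

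Of the 15365 21ur rows 15351 matched Ensembl release 115 by name, used for chromosome and overlap only. Named loci are the 12 highest in the 21U class, the 5 smallest p there, the 6 highest in the 22G and 4 in the 26G class, those with a mean of at least 5 in both, and the tested loci of the 22G class. Opposite-strand neighbours follow from these. Of the pathway list, which holds rde-3 and mut-2 as names of 1 gene, the called genes and prg-1 are named. 21ur-3793, 21ur-1372, 21ur-3984, 21ur-1086, 21ur-15599, 21ur-3414, 21ur-15265, 21ur-7705 and ZK930.13 fall outside these rules and were picked with their values known. The loci and the lists were chosen with earlier results of these data known. The submitters call the samples biological replicates; p-values measure the spread between them, and counts of few reads carry counting error as well. The alternatives were other pseudocounts (0.5 and 5), filters (none and 20), scalings, tools, a threshold of 0.1, replicate blocks, merged identical rows and each library left out. Figures were drawn with Matplotlib 3.10.9.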

Additional observations from a re-analysis of the deposited data

How the results depend on the processing

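The count of 21ur loci called in the 21U class was 0 in 17 of 18 alternative settings and 1 of 39 tested without Low replicate 3 (21ur-2362), where 8.95% of all tested features were called, so over the left-out libraries it ran between 0 and 1. In the 22G class it was 0 over the chosen loci in every setting run, and 1 when all 21ur rows of that table were taken in place of them (21ur-7705, which has no 21U read; 1 of 32 tested, against 8.3% of all tested features), an alternative chosen after seeing the data. In the 26G class it was 0 throughout. The count of pathway genes called was 1 in all 18 settings. The log2 difference of the summed 21ur signal (-0.18) was 0.10 with TMM scaling and 0.031 with equal class totals. With the 22G class total as the scale it was -0.20. Over the left-out libraries it ran from -0.27 to -0.13, and it was -0.17 for loci without an opposite-strand neighbour, an alternative added later. The cause of the change in direction was not tested. The share in the 10 highest loci (-0.588 percentage points, High minus Low) was 0.83 with identical rows counted once and ran from -1 to -0.104 over the left-out libraries. The difference in the share of the class ran from -1.04 without Low replicate 1 to 0.902 without Low replicate 3. The difference in loci detected per library (-8.67) was -22.0 without Low replicate 1 and 2.5 without Low replicate 2. Deviations of same-numbered libraries correlated at 0.0834, -0.00116 and -0.0636 in the 21U class. They correlated at 0.0343, 0.0463 and 0.0196 in the 22G class and at -0.0826, -0.144 and -0.285 in the 26G class. These correlations cannot show whether the replicate numbers pair the samples by design. With the replicate block the summed log2 difference was -0.18 and 0 loci were called. Merging identical rows also merges loci that share 1 read pattern by low counts.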
